A study of Rattus norvegicus with 6 samples.

Results

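The collagen genes were examined in spinal cord RNA-seq of SNI-NP rats and sham rats, with 3 libraries in each group. Members were all genes of the deposited table whose symbol has the form of a collagen chain (*Col*, a type number, *a*, a chain number) with at least 1 count in any library, and 42 of the 22050 listed genes met this rule. By the known structure of their chains, 10 were grouped as fibrillar, 8 as basement membrane and 24 as other collagens. The rats were male Sprague–Dawley animals aged 8 to 10 weeks. SNI-NP rats underwent spared nerve injury, a cut of sciatic nerve branches that leaves the sural branch intact, and sham rats underwent sham surgery. No other treatment is stated for either group, and the side and level of the cord and the time from surgery to collection are not given in the sources used here. Each library was 1 replicate by its label, and nothing states whether a library came from 1 animal or from a pool, so p-values measure only the spread between these libraries. *Col1a2*, *Col6a3* and *Col21a1* were not analysed here.

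Collagens are proteins of the extracellular matrix in which chains wind into a triple helix. Fibrillar collagens assemble into the tensile fibres of meninges, vessel walls and nerve sheaths, whereas type IV collagen forms the sheet-like network of basement membranes under endothelium and around Schwann cells. The remaining types decorate fibrils, form beaded filaments or hexagonal nets, or span the plasma membrane. In the spinal cord the parenchyma is poor in fibrillar collagen, which is concentrated in the meninges, the vessels and the nerve roots.

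The type IV genes are arranged as head-to-head pairs, and the start regions of these pairs are shown because the results below compare the chains of each pair. The sequences were read from RefSeq promoter windows of the GRCr8 assembly, which is not the assembly of the deposited table, and 33 of the 42 members had such a window. All are on the plus strand, 5′ to 3′. Capitals mark GGGCGG, the core of the GC box, or its reverse complement CCGCCC. The first sequence is the whole interval of 76 bases between the starts of *Col4a2* (minus strand) and *Col4a1* (plus strand), at chr16:84885521-84885596. The second is the 120 bases before the start of *Col4a3*, of 412 bases that separate it from the start of *Col4a4*, at chr9:91323870-91323989. The third is the 120 bases before the start of *Col4a5*, of 1414 bases that separate it from the start of *Col4a6*, at chrX:109907239-109907358.
Col4a1/Col4a2: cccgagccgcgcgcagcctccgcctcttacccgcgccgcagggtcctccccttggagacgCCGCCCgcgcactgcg
Col4a3/Col4a4: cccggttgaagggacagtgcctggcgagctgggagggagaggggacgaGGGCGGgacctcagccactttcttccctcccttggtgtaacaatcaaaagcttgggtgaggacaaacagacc
Col4a5/Col4a6: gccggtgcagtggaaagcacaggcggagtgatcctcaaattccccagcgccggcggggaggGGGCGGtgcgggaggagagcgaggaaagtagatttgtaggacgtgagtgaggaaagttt

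The 120 bases before the start are also shown for *Col18a1* (chr20:11473525-11473644) and *Col5a1* (chr3:31606760-31606879), a basement membrane and a fibrillar gene that were both higher in SNI-NP rats by the rule given below. The first holds the GC box core at 3 places and the second at none.
Col18a1: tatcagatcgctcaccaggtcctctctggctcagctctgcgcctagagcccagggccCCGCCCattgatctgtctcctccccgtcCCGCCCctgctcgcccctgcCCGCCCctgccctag
Col5a1: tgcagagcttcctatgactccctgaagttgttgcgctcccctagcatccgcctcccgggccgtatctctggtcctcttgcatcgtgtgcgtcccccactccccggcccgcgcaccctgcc

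Within 250 bases before the start and on either strand, GGGCGG was present in 19 of the 33 members with a window (57.6%), against 30.5% of all 33469 windows and 38.9% of the windows of protein-coding genes. By class it was present in 6 of 7 fibrillar windows, 6 of 8 basement membrane windows and 7 of 18 windows of the other collagens. The windows of *Col4a1* and *Col4a2* share the 76 bases between their starts and the match in them, so these windows are not independent. CCAAT was present in 30.3% of the members and 34.0% of all windows, and TATAAA in 9.09% and 12.9%. These matches describe letters in the windows and were not tested as binding sites.

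The authors deposited estimated counts and FPKM values, the latter scaled by gene length and library total, so that FPKM was used to compare levels between genes. The libraries held between 16670760 and 18151156 estimated counts, and a count of 0 allowed at most 0.165 to 0.18 CPM (counts per library total, adjusted by TMM factors), which covers counting error only. The collagens spanned a wide range of levels. *Col3a1* had the highest mean over the 6 libraries at 521.4 FPKM and ranked 89th among all listed genes, and *Col1a1* (381.7 FPKM) and *Col4a1* (224.5 FPKM) followed. Mean levels were above 100 FPKM in 8 members, between 10 and 100 in 11, between 1 and 10 in 13 and below 1 in 10. The 5 most abundant members, *Col3a1*, *Col1a1*, *Col4a1*, *Col4a2* and *Col6a2*, held 62.6% to 66.2% of the summed collagen FPKM of a library.

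Fibrillar chains made up 53.3% to 57.8% of the summed collagen FPKM, basement membrane chains 22.6% to 25.9% and other chains 17.0% to 21.5%, and the lowest share of other chains was in SNI-NP 1. As a share of the FPKM of all genes, collagens took 0.352%, 0.402% and 0.358% in Sham 1 to 3 and 0.481%, 0.418% and 0.435% in SNI-NP 1 to 3. All 3 SNI-NP values lay above the sham values. The deposited annotation placed 34 of the 42 members in the KEGG pathway of protein digestion and absorption, 16 in ECM-receptor interaction and 24 in the GO term collagen trimer.

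**Figure D1:**
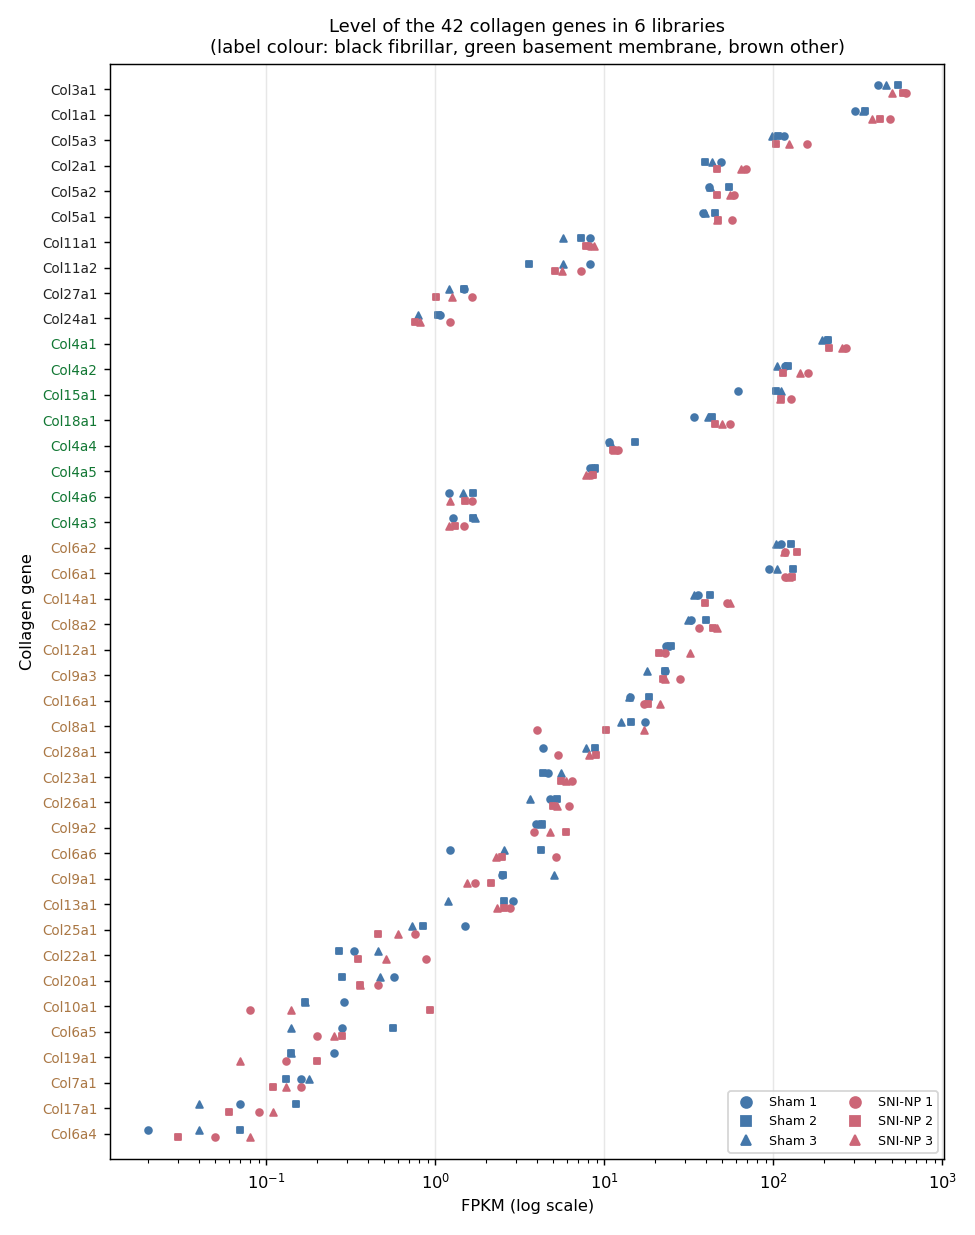
Level of each of the 42 collagen genes in the 6 libraries, as FPKM on a logarithmic axis, with genes ordered by mean level within the fibrillar, basement membrane and other classes. Circles, squares and triangles are replicates 1, 2 and 3 (blue sham, red SNI-NP), and *Col3a1* and *Col1a1* stand above 300 FPKM in every library.

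The main comparison asked which collagen genes differed between SNI-NP and sham rats. Of the 38 members that passed the filter on low counts, 8 were higher and 1 was lower in SNI-NP rats by the rule of a 1.2-fold or larger difference with an unadjusted p below 0.05. Among all 14426 tested genes this rule called 4.54% higher and 5.9% lower. At a fold change above 2 with the same p-value, 0 members and 2.27% of all genes were called. The higher members were *Col1a1*, *Col2a1* and *Col5a1* (fibrillar), *Col4a1* and *Col18a1* (basement membrane) and *Col14a1*, *Col8a2* and *Col16a1* (other), and the lower member was *Col9a1*. Under Benjamini-Hochberg adjustment over all genes, 0 members and 0.0% of all genes had an adjusted p-value under 0.05 in edgeR's quasi-likelihood test. The adjusted p-values of the members ranged from 0.436 to 0.995, the smallest of any gene was 0.116, and 1565 genes had an unadjusted p-value under 0.05. DESeq2 called 194 genes at that adjusted threshold and 0 members, the lowest adjusted p of a member being 0.118 for *Col1a1*.

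A log2 fold change above 0 was found in 27 of the 38 members, against 50.9% of all tested genes, and the median was 0.25 against 0.006 over all genes. The 3 SNI-NP values lay above the 3 sham values in 6 members, *Col1a1*, *Col5a1*, *Col4a1*, *Col18a1*, *Col16a1* and *Col23a1*, and below them in 1, *Col9a1*. Among all tested genes these shares were 10.4% and 8.15%. The median log2 fold change was 0.28 in fibrillar, 0.19 in basement membrane and 0.22 in other collagens. Tested members were longer than other genes, with a median of 4868 bases against 2282, and when fold changes were corrected for a trend with length, 15 members were called higher and 0 lower, while the share of all genes called higher went from 4.54% to 8.06%. In fits that each dropped 1 library, between 1 and 11 members were called. Without Sham 2 and without SNI-NP 2 these were 10 of 40 and 11 of 39 tested members, against 14.3% and 9.43% of all genes. Without Sham 1, Sham 3 or SNI-NP 3 they were 3 of 39, 1 of 41 (*Col1a1*) and 2 of 40, against 6.21%, 6.96% and 6.28% of all genes, and without SNI-NP 1 they were 4 of 41 against 13.1%. Pooled over both directions, the share of members called was therefore near or below that of all genes in 4 of the 6 fits. By direction, 4 were higher and 0 lower without SNI-NP 1, against 3.55% and 9.52% of all genes. Without Sham 1 these were 2 and 1, against 2.11% and 4.1%. Without Sham 3 they were 1 and 0, against 2.56% and 4.41%, and without SNI-NP 3 they were 1 and 1, against 2.1% and 4.18%.

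**Figure D2:**
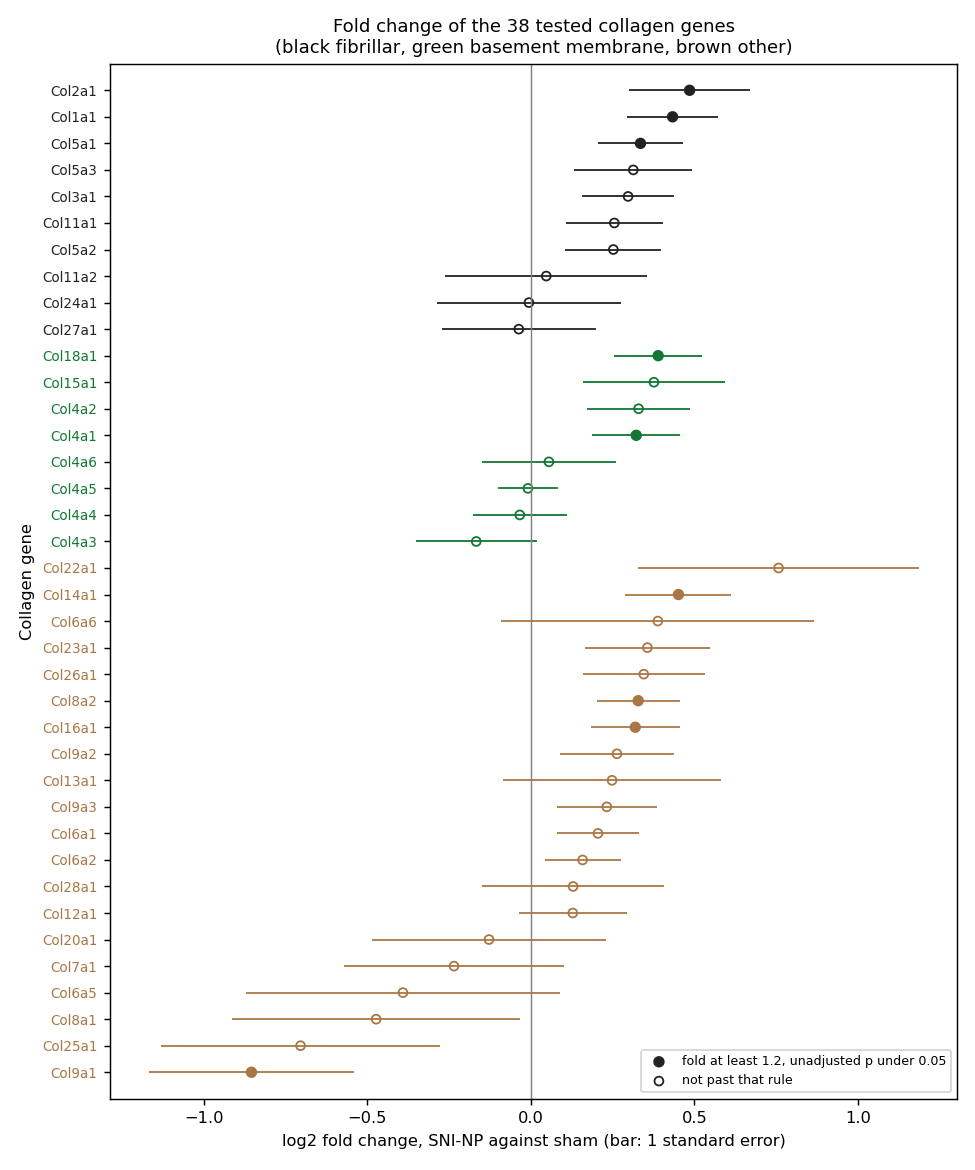
Log2 fold change (SNI-NP against sham) of the 38 tested collagen genes, with bars of 1 standard error from edgeR, grouped by class. Filled points are the 9 members past the rule of fold and unadjusted p-value, and 27 of the 38 points lie right of 0.

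The libraries did not contribute equally. SNI-NP 1 held the highest value of 20 of the 38 tested members (52.6%), whereas it held the highest value of 20.4% of all tested genes. Sham 3 held the lowest value of 12 members (31.6%, against 13.5% of all genes) and Sham 1 of 11 (28.9%, against 17.6%). The values below are CPM, and each p-value is from edgeR's quasi-likelihood test.

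Among the fibrillar collagens, 3 of 10 members were called higher and 0 lower, and 8 had a log2 fold change above 0. *Col1a1*, a chain of type I collagen, was at 1784, 1957 and 1953 CPM in Sham 1 to 3 and 2980, 2464 and 2245 CPM in SNI-NP 1 to 3. There was no overlap between the groups, and SNI-NP 1 was the highest. Sham rats averaged 1898 ± 98.9 CPM and SNI-NP rats 2563 ± 377 CPM (SD, n = 3 libraries each), and the log2 fold change was 0.43 (standard error, SE, 0.14, unadjusted p = 0.0152 and edgeR adjusted p = 0.436). It was the member called in 5 of the 6 fits that left out 1 library, the exception being the fit without Sham 1, with log2 fold changes from 0.31 to 0.48.

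*Col2a1*, the chain of type II collagen of cartilage and the notochord lineage, was at 223, 171 and 195 CPM in Sham 1 to 3 and 325, 208 and 293 CPM in SNI-NP 1 to 3. SNI-NP 2 lay inside the sham range, so the groups overlapped. The log2 fold change was 0.49 (0.485, SE 0.18, unadjusted p = 0.0324 and edgeR adjusted p = 0.440), and it was called without Sham 1 and without SNI-NP 2 but in none of the other 4 fits that left out 1 library. *Col5a1*, which encodes a type V chain that sets the diameter of collagen fibrils, was at 218, 245 and 222 CPM in sham rats and 337, 262 and 265 CPM in SNI-NP rats. The groups did not overlap, although the lowest SNI-NP value was close to the highest sham value, and the log2 fold change was 0.34 (0.335, SE 0.13, unadjusted p = 0.0341 and edgeR adjusted p = 0.442). *Col5a1* was called in 2 of the 6 fits that left out 1 library, those without Sham 2 and without SNI-NP 2, and its value was 0.21 (unadjusted p = 0.111) without SNI-NP 1.

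The other fibrillar members were not called. *Col3a1*, the type III collagen of vessel walls and loose connective tissue, was at 1990, 2507 and 2203 CPM in sham rats and 3034, 2771 and 2425 CPM in SNI-NP rats, with Sham 2 above SNI-NP 3. Its log2 fold change was 0.30 (SE 0.14, unadjusted p = 0.0717). *Col5a3*, a type V chain, was at 700, 623 and 592 CPM against 998, 622 and 760 CPM, with a log2 fold change of 0.31 (SE 0.18, unadjusted p = 0.124). *Col5a2* and *Col11a1*, which join mixed type V and type XI fibrils, had log2 fold changes of 0.25 and 0.26 (0.252 and 0.255) with standard errors of 0.15 each. *Col11a2* (0.05), *Col24a1* (-0.01) and *Col27a1* (-0.04) lay near 0 with standard errors of 0.31, 0.28 and 0.24, and their mean levels were 5.917, 0.9467 and 1.34 FPKM.

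Among the basement membrane collagens, 2 of 8 were called higher and 0 lower. *Col4a1*, a chain of the ubiquitous type IV network, was at 1360, 1324 and 1268 CPM in Sham 1 to 3 and 1855, 1384 and 1701 CPM in SNI-NP 1 to 3. All SNI-NP values exceeded the sham values, but SNI-NP 2 stood close to the sham rats. The log2 fold change was 0.32 (SE 0.14, unadjusted p = 0.0464 and edgeR adjusted p = 0.454), and of the fits that left out 1 library it was called only without SNI-NP 2. *Col4a2*, its partner chain, was at 577, 581 and 515 CPM against 826, 559 and 715 CPM, with SNI-NP 2 inside the sham range and a log2 fold change of 0.33 (SE 0.16, unadjusted p = 0.0711). *Col18a1*, the multiplexin that contains endostatin, was at 170, 209 and 204 CPM in sham rats and 289, 224 and 251 CPM in SNI-NP rats without overlap. Its log2 fold change was 0.39 (SE 0.14, unadjusted p = 0.0223 and edgeR adjusted p = 0.436), and it was called in 2 of the 6 fits that left out 1 library, those without Sham 2 and without SNI-NP 2. *Col15a1*, the other multiplexin, was at 321, 519 and 571 CPM against 690, 569 and 571 CPM. Sham 1 was far below the other 5 libraries, and the log2 fold change was 0.38 (SE 0.22, unadjusted p = 0.123), or 0.15 (0.145) without Sham 1. Its counts were not whole in the deposited table, as were those of *Col4a3* and *Col23a1*.

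The 4 tissue-restricted type IV chains had log2 fold changes from -0.17 (*Col4a3*) to 0.06 (*Col4a6*, 0.055), with *Col4a4* at -0.03 (SE 0.14) and *Col4a5* at -0.01 (SE 0.09). *Col4a5* was at 53.3, 54.8 and 56.1 CPM in sham rats and 56.7, 55.4 and 51.0 CPM in SNI-NP rats, the second smallest spread among sham rats of any tested member (coefficient of variation 2.51%). None of the 4 was called, and each had values in both groups that overlapped.

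Ratios between chains were then computed within each library from FPKM, so that the library total cancels. The pairs were chosen after values were seen, 11 ratios were compared, and an exact permutation test of 3 against 3 libraries cannot give a two-sided p below 0.1. *Col4a1* to *Col4a2* was 1.77, 1.71 and 1.85 in sham rats and 1.68, 1.86 and 1.79 in SNI-NP rats, so that the highest ratio was 1.1 times the lowest, although the level of *Col4a1* itself ranged from 1268 to 1855 CPM. *Col6a1* to *Col6a2* lay between 0.855 and 1.07, and *Col5a1* to *Col5a2* had a highest ratio 1.23 times the lowest. *Col4a3* to *Col4a4* lay between 0.106 and 0.158 and *Col4a5* to *Col4a6* between 5.08 and 6.79. *Col4a1* to *Col4a5*, chains of different networks, was 25.1, 23.8 and 22.3 in sham rats and 32.2, 24.6 and 32.8 in SNI-NP rats, with an exact permutation p of 0.2 (two-sided, adjusted p = 0.44). SNI-NP 2 lay inside the sham range.

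The ratio of *Col9a1* to *Col9a2*, chains of type IX collagen, was 0.626, 0.591 and 1.18 in sham rats and 0.448, 0.36 and 0.321 in SNI-NP rats. The groups did not overlap, and the exact permutation p was 0.1, the smallest possible (adjusted p = 0.44). *Col8a1* to *Col8a2*, chains of type VIII collagen, was 0.534, 0.357 and 0.402 in sham rats and 0.109, 0.231 and 0.368 in SNI-NP rats, where the highest ratio was 4.9 times the lowest (exact permutation p = 0.2).

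**Figure D3:**
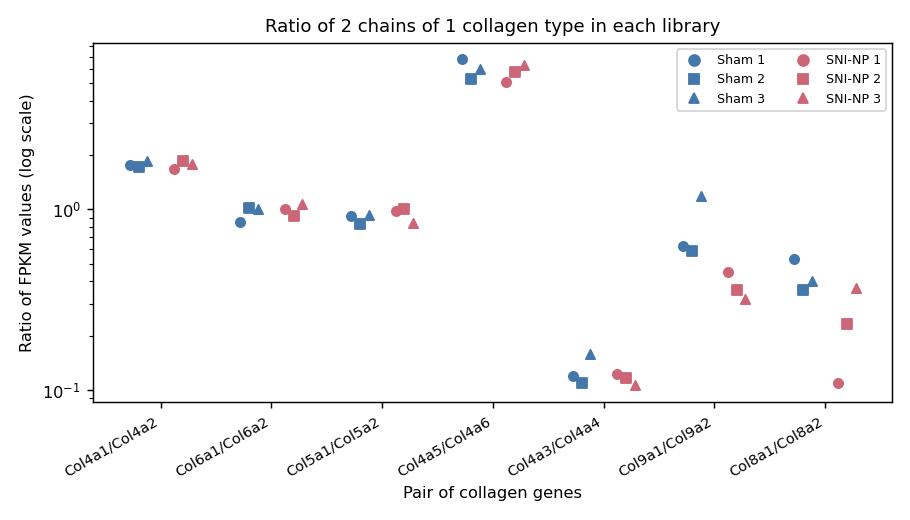
Ratio of the FPKM values of 2 chains of the same collagen type in each library, on a logarithmic axis, for 7 pairs (blue sham, red SNI-NP). The ratio of *Col4a1* to *Col4a2* stays between 1.68 and 1.86, whereas that of *Col8a1* to *Col8a2* runs from 0.109 to 0.534.

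Of the other collagens, 20 of 24 were tested, and 3 were called higher and 1 lower. *Col14a1*, a FACIT collagen (a class that attaches to fibril surfaces and has interrupted helices), was at 193, 217 and 183 CPM in sham rats and 300, 209 and 302 CPM in SNI-NP rats. SNI-NP 2 lay inside the sham range, and the log2 fold change was 0.45 (SE 0.16, unadjusted p = 0.0257 and edgeR adjusted p = 0.436). It too was called without Sham 2 and without SNI-NP 2 but in none of the other 4 such fits. *Col16a1*, another FACIT collagen, was at 73.9, 93.1 and 73.2 CPM against 93.4, 93.6 and 113 CPM, a log2 fold change of 0.32 (SE 0.14, unadjusted p = 0.0495 and edgeR adjusted p = 0.459). The gap between the groups was only that from Sham 2 to SNI-NP 1, and in FPKM, scaled by the library total alone, Sham 2 (18.46) lay above SNI-NP 1 (17.07) and SNI-NP 2 (18.01). Without SNI-NP 3 the value was 0.19 (0.186, unadjusted p = 0.283), the call held only in the fits without Sham 2 and without SNI-NP 1, and it was lost under RLE and upper-quartile factors, DESeq2, the minimum of 10 counts and the replicate block.

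*Col8a2*, which forms the hexagonal network known from the membrane beneath the corneal endothelium, was at 137, 162 and 131 CPM in sham rats and 159, 184 and 197 CPM in SNI-NP rats. Sham 2 exceeded SNI-NP 1, and the log2 fold change was 0.33 (SE 0.13, unadjusted p = 0.0349 and edgeR adjusted p = 0.443). It was called without Sham 2 and without SNI-NP 1 but in none of the other 4 such fits. Its partner chain *Col8a1* was at 75.7, 59.7 and 54.4 CPM in sham rats and 17.9, 44.0 and 74.7 CPM in SNI-NP rats. The 3 SNI-NP libraries differed from each other by more than the groups did, and the log2 fold change was -0.47 with a standard error of 0.44 (unadjusted p = 0.316). It was -0.09 without SNI-NP 1 and -1.06 (-1.055, unadjusted p = 0.0348) without SNI-NP 3.

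*Col9a1*, a chain of the cartilage FACIT collagen IX, was the only member called lower. Its counts were 157, 164 and 326 in Sham 1 to 3 and 118, 146 and 102 in SNI-NP 1 to 3, which gave 9.43, 9.24 and 19.0 CPM against 6.79, 8.11 and 5.91 CPM. The groups did not overlap, and Sham 3 stood apart from the other 5 libraries. The log2 fold change was -0.85 (SE 0.31, unadjusted p = 0.0284 and edgeR adjusted p = 0.436). Without Sham 3 it was -0.46 (-0.455) and the gene was not called. *Col9a1* was called in 3 of the 6 fits that left out 1 library, those without Sham 1, Sham 2 and SNI-NP 2. With the replicate block and with length offsets the gene was not called. *Col9a2* (0.26) and *Col9a3* (0.23), which form the same trimer with *Col9a1*, had log2 fold changes above 0 and were not called.

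**Figure D4:**
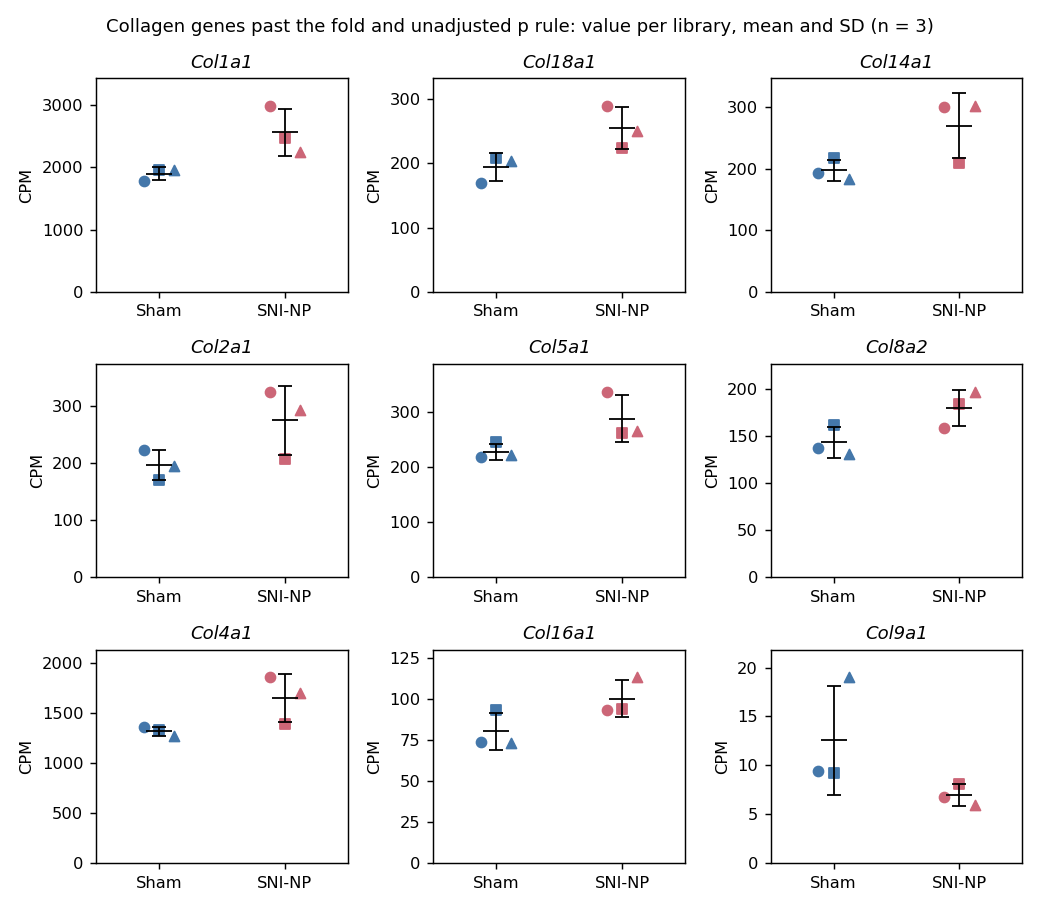
CPM per library of the 9 collagen genes past the rule of fold and unadjusted p-value, with the mean and SD of each group (n = 3); circles, squares and triangles are replicates 1, 2 and 3, and each axis starts at 0. *Col1a1*, *Col18a1*, *Col5a1*, *Col4a1* and *Col16a1* have no overlap above the sham rats, *Col9a1* has none below them, and *Col14a1*, *Col2a1* and *Col8a2* overlap.

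The remaining tested members of this class were not called. The beaded filament chains *Col6a1* and *Col6a2*, which form the microfibrils around cells, had log2 fold changes of 0.21 (0.205, SE 0.13, unadjusted p = 0.143) and 0.16 (SE 0.12, unadjusted p = 0.215). *Col6a1* was at 291, 385 and 321 CPM in sham rats and 375, 391 and 383 CPM in SNI-NP rats, and Sham 2 lay inside the SNI-NP range. *Col23a1*, a transmembrane collagen, was at 5.58, 4.96 and 6.58 CPM against 8.05, 6.61 and 7.25 CPM without overlap, and its log2 fold change of 0.36 (SE 0.19) had an unadjusted p of 0.105. The largest log2 fold change above 0 was that of *Col22a1* (0.76, SE 0.43, unadjusted p = 0.119), whose counts were 27, 22 and 38 in sham rats and 77, 30 and 43 in SNI-NP rats. This value was 0.30 (0.297, unadjusted p = 0.478) without SNI-NP 1 and 1.03 (unadjusted p = 0.0396) without SNI-NP 2. *Col25a1*, a transmembrane collagen known from neurons, had counts of 36, 21 and 18 in sham rats and 20, 12 and 15 in SNI-NP rats, and its log2 fold change was -0.70 (SE 0.43, unadjusted p = 0.140). *Col12a1*, *Col28a1*, *Col26a1*, *Col6a6* and *Col13a1* had log2 fold changes from 0.13 to 0.39, and *Col20a1*, *Col7a1* and *Col6a5* from -0.39 to -0.13. All 8 except *Col26a1* and *Col7a1* changed sign when 1 of the libraries was left out. *Col10a1*, *Col17a1*, *Col19a1* and *Col6a4* were below the filter, and *Col10a1* had counts of 10, 6 and 6 in sham rats and 3, 34 and 5 in SNI-NP rats.

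Genes that act on collagen were taken from a list of 60, of which 56 were analysed and 52 tested. The rule called 5 higher and 1 lower, against 4.54% and 5.9% of all tested genes. Only with both directions pooled was the share of partner genes called near that of all genes, at 6 of 52 against 10.4%. A log2 fold change above 0 was found in 38, against 50.9% of all genes, and the median was 0.18 against 0.006. SNI-NP values lay above all sham values in 9 and below them in 1, against 10.4% and 8.15% of all genes. Among the 12 hydroxylases and glycosyltransferases, which modify the nascent chains, 1 was called. This was *P3h3*, a prolyl 3-hydroxylase gene (0.30, SE 0.12, unadjusted p = 0.0418 and edgeR adjusted p = 0.445). Of the fits that left out 1 library, *P3h3* was called only in that without Sham 2. *P4hb*, the beta subunit of prolyl 4-hydroxylase, had 0.21 (0.205, unadjusted p = 0.083). None of the 5 chaperone and export genes and none of the 6 genes of propeptide processing was called. *Sparc*, which encodes a collagen-binding glycoprotein, was the most abundant of the former at 4456 ± 446 CPM in sham against 5256 ± 498 CPM in SNI-NP libraries (SD, n = 3 each), and *Pcolce*, an enhancer of propeptide removal, had a log2 fold change of 0.29 (unadjusted p = 0.0758).

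Of the 4 tested crosslinking genes, 2 were called higher. *Loxl2*, which encodes a lysyl oxidase-like enzyme that crosslinks type IV collagen, was at 20.1, 23.6 and 20.5 CPM in sham rats and 33.0, 27.4 and 30.8 CPM in SNI-NP rats. Every SNI-NP value exceeded every sham value, and the difference on the log2 scale was 0.51 (SE 0.13, unadjusted p = 0.00497 and edgeR adjusted p = 0.348). *Loxl3* was at 12.8, 16.3 and 12.7 CPM against 17.8, 18.6 and 19.5 CPM, with a log2 fold change of 0.42 (SE 0.15, unadjusted p = 0.0227 and edgeR adjusted p = 0.436). *Loxl3* was not called without Sham 1, Sham 3 or SNI-NP 3. *Loxl1*, the most abundant of the group, had 0.18 (unadjusted p = 0.527).

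All 10 basement membrane partner genes had a log2 fold change above 0, with a median of 0.31 (0.306), and 2 were called higher. *Nid2*, which encodes nidogen 2, a linker between laminin and type IV collagen, was at 108, 133 and 103 CPM in sham rats and 183, 138 and 160 CPM in SNI-NP rats. Its log2 fold change was 0.48 (SE 0.15, unadjusted p = 0.0124 and edgeR adjusted p = 0.415). *Lamb2*, which encodes the laminin beta 2 chain, was at 318, 353 and 316 CPM against 469, 385 and 401 CPM. Its log2 fold change was 0.35 (SE 0.12, unadjusted p = 0.0188 and edgeR adjusted p = 0.436). Without Sham 1, Sham 3 or SNI-NP 3 neither gene was called, and *Lamb2* was also not called without SNI-NP 1. Neither gene overlapped between the groups, and *Nid1* had a log2 fold change of 0.17 (unadjusted p = 0.292).

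Of the 7 small leucine-rich proteoglycans, which coat fibrils, 1 was called lower. *Aspn*, which encodes asporin, was at 2.16, 3.89 and 3.73 CPM in sham rats and 0.518, 0.611 and 1.04 CPM in SNI-NP rats. In CPM no SNI-NP value reached the lowest sham value, whereas in FPKM SNI-NP 3 and Sham 1 were equal at 1.04, and the difference on the log2 scale was -2.16 (SE 0.40, unadjusted p = 0.000901 and edgeR adjusted p = 0.285), or -1.45 from mean FPKM. The counts were few and not whole, from 9.24 in SNI-NP 1 to 69.47 in Sham 2, and the gene was not tested under the minimum of 10 counts. *Dcn*, which encodes decorin and was the most abundant of the group, was at 632, 1428 and 817 CPM against 949, 789 and 931 CPM. Sham 2 was the highest library, and the log2 fold change of -0.11 (unadjusted p = 0.714) was 0.3 without it. None of the 8 tested receptor genes was called, and their median was 0.03, with *Ddr1*, a receptor tyrosine kinase for collagen, at 0.14 (unadjusted p = 0.294).

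In bulk tissue, fewer cells of a type and less RNA per cell cannot be told apart. Marker genes of the cell types that a spinal cord sample can hold were therefore summed as FPKM per library. The 5 markers of Schwann cells, the myelinating cells of nerve roots, summed to 10435, 11276 and 9010.5 FPKM in sham rats and 12758, 10244 and 13029 FPKM in SNI-NP rats. Those of oligodendrocytes, the myelinating cells of the cord, summed to 13650 to 18230 FPKM over the 6 libraries, and *Mbp* alone averaged 14176 FPKM. Of the 5 oligodendrocyte markers, 4 had a log2 fold change below 0, the median was -0.442 and 0 were called. By the Schwann cell sum, genes of peripheral myelin were abundant in tissue labelled spinal cord. All 5 Schwann cell markers had a log2 fold change above 0 and 1 was called higher. Their sum was lowest in Sham 3 among sham rats and in SNI-NP 2 among SNI-NP rats. Among SNI-NP libraries, SNI-NP 2 was the lowest for 22 of the 38 tested collagens, SNI-NP 3 for 9, *Col1a1* and *Col3a1* included, and SNI-NP 1 for 7. The matching shares of all genes were not computed. Sums of oligodendrocyte, endothelial, mural cell, skeletal muscle and bone and cartilage markers were also lowest in SNI-NP 2 among SNI-NP libraries. Those of the remaining lists were lowest in SNI-NP 1 or SNI-NP 3. The Schwann cell sum was highest in SNI-NP 3, whereas SNI-NP 1 held the highest value of 20 of the 38 collagens. The part of Schwann cell content in the collagen values was not tested.

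Markers of meningeal fibroblasts summed to 751.7 to 1244.5 FPKM in sham rats and 924.8 to 1021.6 FPKM in SNI-NP rats, and 11 of 13 had a log2 fold change above 0 with 1 called higher. Endothelial markers summed to 254.8 to 260.8 FPKM in sham rats and 258.8 to 304.1 FPKM in SNI-NP rats (0 of 7 called). Mural cell markers summed to 248.8 to 267.7 FPKM and 254.5 to 324.2 FPKM, and 3 of 8 were called higher, *Pdgfrb*, *Acta2* and *Tagln*. Neuron markers summed to 162.2 to 286.6 FPKM in sham rats and 148.2 to 163.4 FPKM in SNI-NP rats, all 7 had a log2 fold change below 0, and 2 were called lower. Astrocyte markers summed to 232.2 to 522.1 FPKM and 250.3 to 357.0 FPKM, with 1 of 5 called lower, and microglial markers to 92.9 to 134 FPKM over the 6 libraries, with 0 of 5 called.

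Markers of tissues next to the cord also varied. Bone marrow and blood markers summed to 1770.9 to 4175.1 FPKM in sham rats and 3639.7 to 8363.6 FPKM in SNI-NP rats, the highest being SNI-NP 1, and 6 of 13 were called higher. Skeletal muscle markers summed to 10.7 to 58.0 FPKM in sham rats and 8.08 to 287.0 FPKM in SNI-NP rats, with 1 of 7 called higher. Dorsal root ganglion neuron markers summed to 111.9 to 252.3 FPKM in sham rats and to 27.2, 346.6 and 249.3 FPKM in SNI-NP 1 to 3, so that SNI-NP 1 was the lowest of the 6 libraries. Bone and cartilage markers summed to 469.0 to 534.7 FPKM and 437.1 to 582.8 FPKM, and 3 of these 10 genes, *Phex*, *Matn1* and *Matn3*, were at 0 in at least 1 library. No marker of the other lists was at 0. What share of the collagen differences goes with these tissues was not tested.

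The summed FPKM of all collagens was 1806.2, 2117.4 and 1884.3 in Sham 1 to 3 and 2526.1, 2231.5 and 2235.9 in SNI-NP 1 to 3, and the means of the groups had a ratio of 1.2. The fibrillar sum had a ratio of 1.23, the basement membrane sum of 1.21 and the sum of other collagens of 1.12. The sum of all collagens and that of the fibrillar collagens did not overlap between the groups, whereas the sums of basement membrane and of other collagens did.

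**Figure D5:**
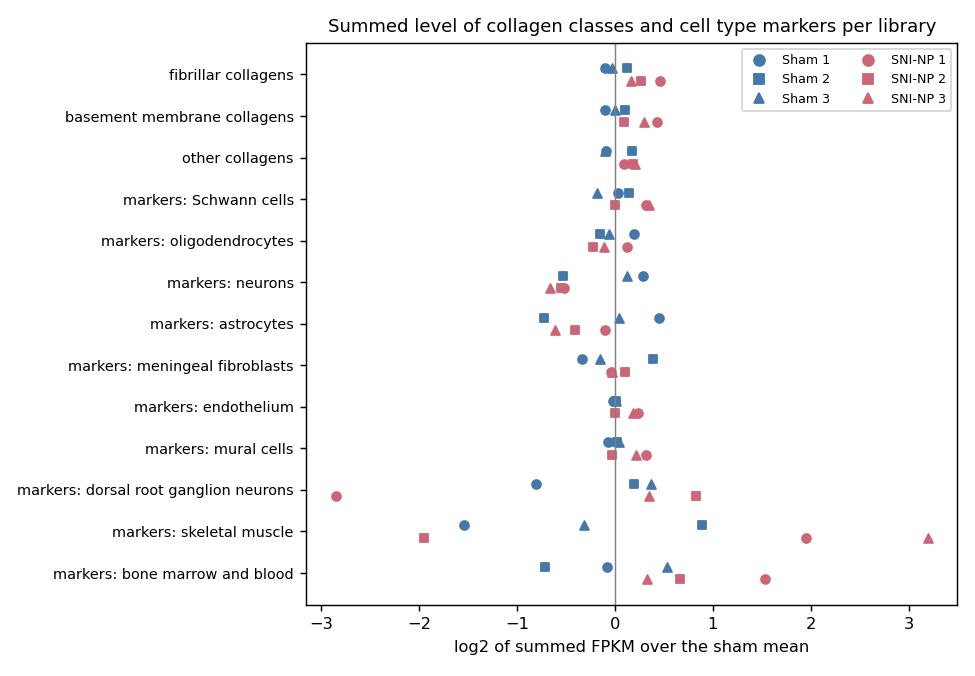
Summed FPKM of the 3 collagen classes and of the marker lists in each library, as log2 over the mean of the sham rats (blue sham, red SNI-NP; circles, squares and triangles are replicates 1, 2 and 3). All 3 SNI-NP sums of each collagen class lie above the sham mean, and the fibrillar sums do not overlap between the groups. The muscle and dorsal root ganglion sums differ more widely among SNI-NP rats than the collagen sums do.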

How the data were processed

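Spinal cord RNA of sham and SNI-NP rats (3 libraries each) was extracted with TRIzol and sequenced, and groups were taken from the sample labels. The authors mapped the reads to the release they call Rat6 and kept unique sequences. The submitters' processing notes name FastQC, STAR and HTSeq without versions, and the annotation release and the use of strand are not given in the sources used here. The authors deposited estimated counts without normalization and FPKM values for 22050 genes. Of the members, 3 had counts that were not whole.

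The deposited estimated counts were rounded and analysed with edgeR 4.0.16 (limma 3.58.1) in R 4.3.3, over the 14426 genes kept by filterByExpr. TMM factors were used, condition was the term of the quasi-likelihood fit, and Benjamini-Hochberg adjustment covered all of these genes. edgeR's common biological coefficient of variation came to 0.223. Genes were called at a fold change of at least 1.2, the fold by which the study chose RNAs to match with its ChIP-seq, if the unadjusted p-value was also under 0.05. CPM values use TMM factors, and overlap between groups was judged on CPM. FPKM sums and ratios use the deposited values. The members, gene lists and tests were chosen with earlier results of these data known. Named members were the 3 with the highest mean FPKM in each class, every member with an unadjusted p-value under 0.05 and the 5 with the largest fold changes. Named partner genes were those with an unadjusted p-value under 0.05 and the most abundant of each group. *Col23a1*, *Col4a5* and other members were described in addition, after their values were seen.

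Alternatives were DESeq2 1.42.0, RLE and upper-quartile factors, no filter, a minimum of 10 counts in every library, FPKM fold changes with 0.001 in place of 0, a block for the replicate number, offsets from a loess curve on length (span 0.5) with and without this block, and leaving out each library. The H3K27ac ChIP-seq was not analysed here, and some genes of the marker and partner lists are not reported here.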

Additional observations from a re-analysis of the deposited data

How the results depend on the processing

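The number of collagen genes called was 9, and between 7 and 9 with RLE or upper-quartile factors, DESeq2, no filter, a minimum of 10 counts or FPKM fold changes. With the replicate number as a block it was 2 (*Col1a1* and *Col2a1*, both higher), and with length offsets it was 15 (15 higher, 0 lower), also 15 together with the replicate block; the cause was not tested. The fibrillar median log2 fold change of 0.276 was 0.461 with length offsets and 0.46 with the block added, and the 6 called partner genes became 16 and 13. Of all genes, 10.4% were called in the main fit, 9.14% with the block, 12.9% with length offsets and 10.8% with both. Of all genes called, 43.5% were higher, against 62.3% with length offsets, 54.1% with length offsets and the block, 34.0% with the block, 36.2% with DESeq2, 27.2% when SNI-NP replicate 1 was dropped and 54.2% when SNI-NP replicate 2 was. The correlations of the deviations of same-numbered libraries were 0.214, -0.143 and 0.0538, and those of differently numbered libraries ran from -0.244 to 0.222. With 3 libraries in each group, these values cannot show whether the numbers pair the libraries.

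When 1 library was left out, 1 to 11 collagens were called, the fewest without Sham replicate 3 and the most without SNI-NP replicate 2. The fibrillar median was from 0.185 to 0.333, the basement membrane median from 0.05 to 0.242 and the median of other collagens from 0.115 (without Sham replicate 1) to 0.271. Of the partner genes, 2 to 18 were called, with 2 without Sham replicate 1 or Sham replicate 3, 3 without SNI-NP replicate 3, 14 without SNI-NP replicate 2 and 18 without Sham replicate 2. Of the genes chosen by the naming rule, 2 reversed in these fits, with *Dcn* from -0.362 (without Sham replicate 1) to 0.3 (without Sham replicate 2) and *Loxl1* from -0.049 (without SNI-NP replicate 3) to 0.439 (without SNI-NP replicate 1). Of all 38 tested members, 11 changed sign in at least 1 of these fits, among them *Col11a2* (-0.221 to 0.363), *Col6a6* (-0.121 to 0.859) and *Col6a5* (-0.78 to 0.22). For single genes of the naming rule, 377 values under the alternatives kept direction and side of the threshold, 67 no longer passed it, 18 newly passed it and 2 reversed. These counts pool called genes with genes that were not called in the main fit. Only the called genes could lose a call, so the 377 do not measure how stable the calls were. Depth was not limiting for the abundant collagens, whereas the 4 untested members had at most 34 counts in a library.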

Other observations

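Genes that carry a collagen-like triple helix but lie outside the collagen naming rule were examined after the data had been seen. Of the 15 listed, 14 were tested, and 1 was called higher and 0 lower, against 4.54% and 5.9% of all tested genes. A log2 fold change above 0 was found in 11, against 50.9% of all genes. The median was 0.27 (0.267), against 0.006 over all genes. *Scara3*, a scavenger receptor gene, was at 48.4, 68.4 and 50.0 CPM in Sham 1 to 3 and 65.3, 82.1 and 74.3 CPM in SNI-NP 1 to 3. Sham 2 lay inside the SNI-NP range, and the log2 fold change was 0.41 (standard error 0.16, edgeR unadjusted p = 0.0375, adjusted p = 0.445). *Gldn*, which encodes gliomedin, a Schwann cell protein of the node of Ranvier, had a log2 fold change of 0.34 (unadjusted p = 0.085) and *Emid1* of 0.28 (unadjusted p = 0.0987). The complement chains *C1qa*, *C1qb* and *C1qc* had log2 fold changes of -0.05, -0.07 and 0.07.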
